A study of Mus musculus with 51 samples.

Results

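Odorant receptor (OR) transcripts recovered after exposure of mice to (*E*)-β-farnesene were compared with those recovered from mice exposed to diluent, using 6 of the 51 libraries of the series. The libraries were chosen by their labels alone, as the 3 whose labelled odorant was (*E*)-β-farnesene and the 3 control libraries that serve it, and all 1117 OR genes listed for them were examined. Each library came from the whole olfactory mucosa of a wild-type C57BL/6J mouse about 3 weeks old. The study describes these mice as mixed-sex littermates and matches odor and diluent mice by litter, but the labels do not say which mice shared a litter. Mice spent 1 hr in an odor-free container and then 1 hr with 10 μL of stimulus on a blotting pad. The farnesene stimulus is described in the study as 100% with water as diluent. The same 3 control mice also served the groups exposed to 1% 2,5-dimethylpyrazine (2,5-DMP, in water) and to 100 μM (methylthio)methanethiol (MTMT, in ethanol), so that the comparisons of these 3 odors with controls are not independent. The labels do not say which diluent each control mouse received, and the effect of the diluent on the differences from control was not tested.

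(*E*)-β-farnesene is a sesquiterpene that male mice release from the preputial gland into urine, and that aphids use as an alarm signal. Each mature olfactory sensory neuron (OSN) transcribes a single OR gene, so the OR transcripts of a mucosa reflect which OSNs are present. When an OSN is active, ribosomal protein S6 in its ribosomes becomes phosphorylated (pS6). In pS6-IP-Seq an antibody against pS6 pulls down those ribosomes with their mRNA, and the transcript of an OR whose OSNs responded takes a larger share of the reads. Mammalian ORs fall into class I, encoded in a single cluster on mouse chromosome 7, and class II, spread over many chromosomes. Related ORs often lie side by side and can share ligands.

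OR reads numbered 118525 to 140471 in the farnesene libraries and 62538 to 124921 in the control libraries, where replicate 1 was the shallowest. Of the 1117 ORs, 1105 had a read in these 6 libraries and 1071 had at least 10 reads in sum and were tested. Values below are normalised read counts, the reads of an OR per 100000 OR reads of the library after scaling by TMM factors (trimmed mean of M values, from edgeR). The tables used hold OR genes only, so the labelled tissue could not be checked against markers of other cells. In whole tissue, more activated OSNs of a type cannot be told apart from more mRNA recovered per OSN.

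The results turn on 19 ORs that passed the threshold, and their coding sequences show how alike some of them are. The stretches below cover the 60 bases around the codons for aspartate and arginine that end the third transmembrane helix, a conserved landmark of ORs, read 5′ to 3′ on the coding strand from GRCm38. The first set holds the 3 neighbouring chromosome 7 ORs that rose (*Olfr701*, *Olfr706* and *Olfr705*), *Olfr704* from the same cluster, which did not pass, and *Olfr11* from chromosome 13, the OR with the lowest p. Capitals mark bases that differ from *Olfr701*.
Olfr701 (chr7:106818418-106818477, plus strand): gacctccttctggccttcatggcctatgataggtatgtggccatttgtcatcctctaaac
Olfr706 (chr7:106886423-106886482, minus strand): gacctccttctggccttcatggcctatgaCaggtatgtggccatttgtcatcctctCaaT
Olfr705 (chr7:106873851-106873910, minus strand): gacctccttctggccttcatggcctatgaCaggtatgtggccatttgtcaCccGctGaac
Olfr704 (chr7:106865315-106865374, plus strand): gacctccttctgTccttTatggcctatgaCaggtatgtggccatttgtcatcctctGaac
Olfr11 (chr13:21639129-21639188, minus strand): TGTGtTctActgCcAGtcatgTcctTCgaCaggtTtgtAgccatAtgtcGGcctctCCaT

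*Olfr706* differed from *Olfr701* at 3 of these 60 bases, *Olfr705* and *Olfr704* at 4 each, and *Olfr11* at 21. Over the whole translated protein, *Olfr701* was 86.7% identical to *Olfr706*, 82.9% to *Olfr705*, 76.3% to *Olfr704* and 40.9% to *Olfr11*. The second set holds *Olfr1393*, which rose, with its closest relatives *Olfr10* and *Olfr1392*, which did not pass, and capitals mark differences from *Olfr1393*.
Olfr1393 (chr11:49280483-49280542, plus strand): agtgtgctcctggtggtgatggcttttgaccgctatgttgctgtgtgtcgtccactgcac
Olfr10 (chr11:49317881-49317940, plus strand): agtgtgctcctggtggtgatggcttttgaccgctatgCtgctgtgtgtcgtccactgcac
Olfr1392 (chr11:49293656-49293715, plus strand): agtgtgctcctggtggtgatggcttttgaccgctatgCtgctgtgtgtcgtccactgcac

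The third set holds *Olfr169* and *Olfr171*, which both rose, and *Olfr170*, which lies between them and did not pass, with capitals marking differences from *Olfr169*.
Olfr169 (chr16:19566489-19566548, minus strand): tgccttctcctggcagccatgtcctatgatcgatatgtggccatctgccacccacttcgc
Olfr171 (chr16:19624706-19624765, minus strand): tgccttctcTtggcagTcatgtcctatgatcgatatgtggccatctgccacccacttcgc
Olfr170 (chr16:19606274-19606333, minus strand): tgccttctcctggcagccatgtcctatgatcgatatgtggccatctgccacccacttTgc

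Exposure to (*E*)-β-farnesene raised 19 ORs (edgeR's quasi-likelihood test, Benjamini-Hochberg adjusted p under 0.05), which is 1.77% of the ORs tested, and lowered 0 (0%). At an unadjusted p below 0.05, 47 ORs were higher and 22 lower, and DESeq2 also called 0 lower. The summed normalised count of the 19 ORs was 2340 ± 73.6 (SD, n = 3) in the control mice and 7223 ± 1165 (SD, n = 3) after farnesene, a sum given only to size the response, because the ORs were chosen for being higher. Over all ORs tested the median log2 fold change was -0.03, with quartiles of -0.25 and 0.22.

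**Figure D1:**
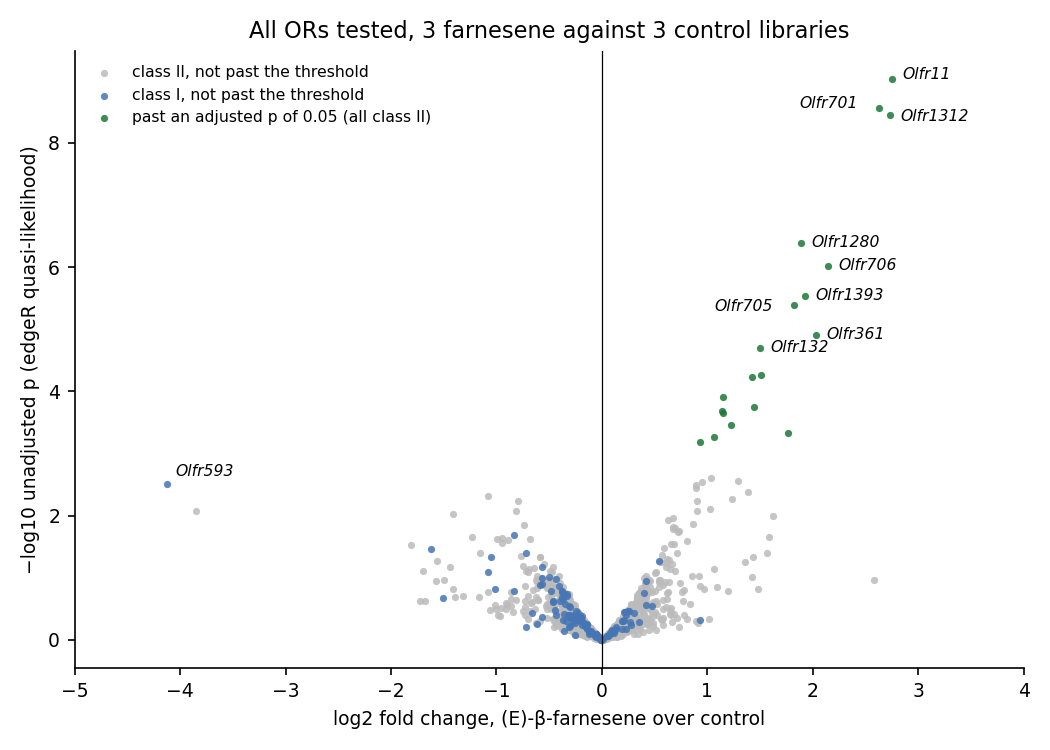
Log2 fold change of each of the 1071 ORs tested (x axis, farnesene over control) against −log10 of its unadjusted p from edgeR's quasi-likelihood test (y axis), with class I ORs in blue and the 19 ORs past an adjusted p of 0.05 in green. All 19 lie to the right of 0 and none is class I, and *Olfr11*, *Olfr701* and *Olfr1312* stand above the rest.

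*Olfr11*, *Olfr701* and *Olfr1312* formed the top of the response, with every farnesene mouse well above every control mouse. *Olfr11* (ENSMUSG00000036658, chr13:21636623-21642518, minus strand) had normalised counts of 98.6, 91.4 and 76.4 in the control mice and 606, 559 and 615 in the farnesene mice. Its lowest farnesene value was thus 5.67 times its highest control value, the widest gap among the 19, and its log2 fold change was 2.75 (SE 0.26, adjusted p = 9.98e-07). *Olfr701* (ENSMUSG00000036744, chr7:106814129-106821472, plus strand) had 80.2, 85.3 and 117 in the control mice and 591, 610 and 553 after farnesene. All 3 farnesene mice lay within 1.10-fold of each other, and the log2 fold change was 2.62 (SE 0.26, adjusted p = 1.26e-06). *Olfr1312* (ENSMUSG00000074947, chr2:112038068-112050238, minus strand) had 93.6, 58.6 and 57.7 in the control mice and 497, 507 and 366 after farnesene. Replicate 3 was the lowest of its farnesene mice but still 3.91 times the highest control, and the log2 fold change was 2.73 (SE 0.28, adjusted p = 1.26e-06).

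*Olfr1280*, *Olfr706*, *Olfr1393* and *Olfr705* followed, and with the first 3 made up the 7 ORs that stayed past the threshold in all 16 alternative analyses, each library left out in turn included. *Olfr1280* (ENSMUSG00000109449, chr2:111314017-111326003, plus strand) had 56.8, 101 and 87.4 in the control mice and 308, 344 and 270 after farnesene (log2 fold change 1.88, SE 0.26, adjusted p = 0.000108). *Olfr706* (ENSMUSG00000109354, chr7:106882589-106888162, minus strand) had 105, 75.4 and 64.7 in the control mice and 408, 468 and 195 after farnesene (log2 fold change 2.15, SE 0.31, adjusted p = 0.000203). Its farnesene mice spanned 2.40-fold, with replicate 3 the lowest and still 1.85 times the highest control. *Olfr1393* (ENSMUSG00000059864, chr11:49278304-49282769, plus strand) had 70.2, 77.7 and 46.0 in the control mice and 280, 143 and 309 after farnesene (log2 fold change 1.92, SE 0.30, adjusted p = 0.000514). Here replicate 2 and not replicate 3 was the low farnesene mouse. *Olfr705* (ENSMUSG00000109058, chr7:106871870-106876891, minus strand) had 95.2, 93.7 and 87.4 in the control mice and 417, 382 and 177 after farnesene (log2 fold change 1.82, SE 0.29, adjusted p = 0.000626). As in its neighbour *Olfr706*, farnesene replicate 3 was the lowest of its group and above each control.

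**Figure D2:**
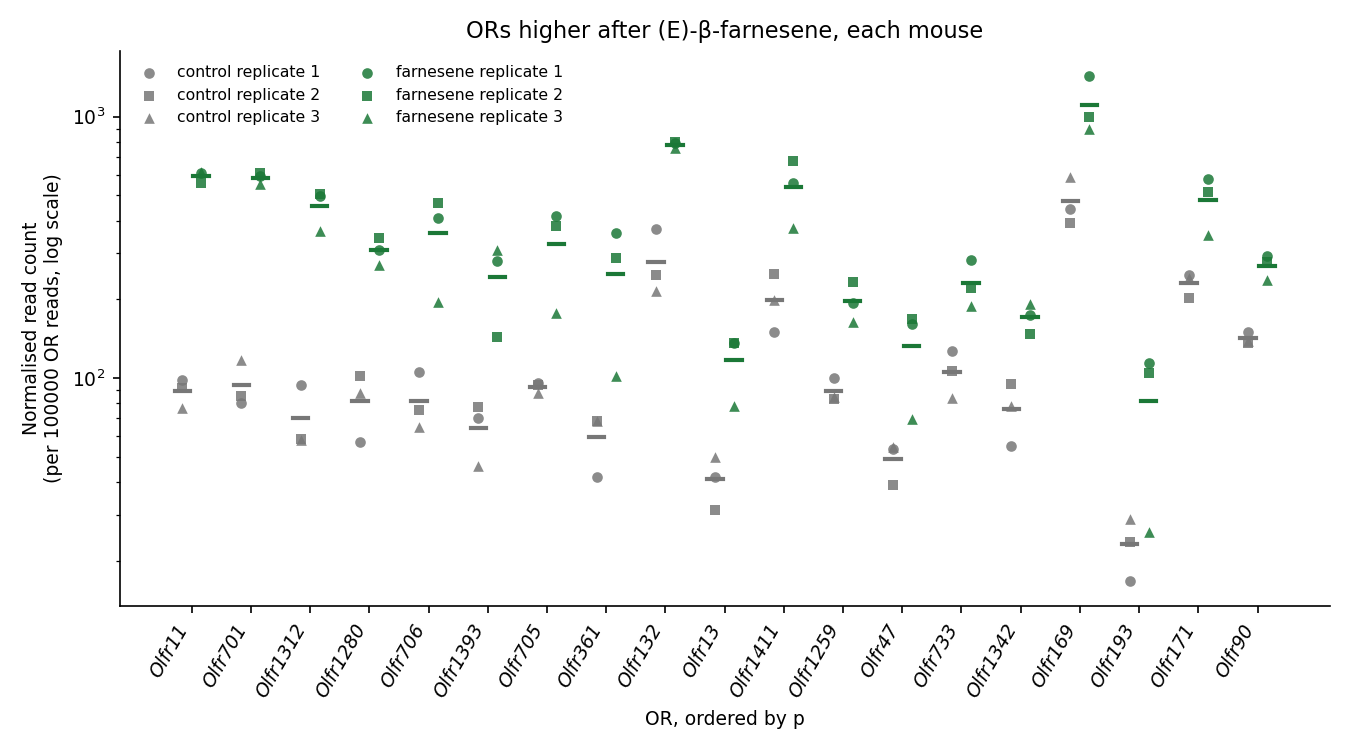
Normalised read count of each of the 19 ORs (y axis, reads per 100000 OR reads after TMM scaling, log scale) in each control mouse (grey) and farnesene mouse (green), with bars at the group means and marker shapes for the replicate numbers. The groups are apart for 18 of the ORs and overlap for *Olfr193*, where farnesene replicate 3 lies among the controls.

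The other 12 ORs lost the threshold when at least 1 library was left out. *Olfr361* on chromosome 2 went from 41.8, 68.6 and 68.6 in the control mice to 359, 288 and 102 after farnesene (log2 fold change 2.03, SE 0.35, adjusted p = 0.00165) and had an adjusted p of 0.0539 without farnesene replicate 2. *Olfr132* on chromosome 17 was the steadiest, with 790, 796 and 758 after farnesene, 2.63% SD over mean, against 371, 248 and 215 in the controls. It changed by 1.50 on the log2 scale (SE 0.27, adjusted p = 0.00238), with an adjusted p of 0.0533 without control replicate 2. *Olfr1411* on chromosome 1 had 558, 679 and 374 after farnesene against 150, 249 and 198 (log2 fold change 1.42, SE 0.28, adjusted p = 0.00564), and 0.0916 without farnesene replicate 2.

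*Olfr13* and *Olfr47*, whose starts lie 59.4 kb apart on chromosome 6, moved alike. *Olfr435* (log2 fold change -0.15, SE 0.41) and *Olfr434* (-0.30, SE 0.43) lie between them and did not pass. *Olfr13* had 41.8, 31.2 and 49.9 in the control mice and 136, 136 and 78.2 after farnesene (log2 fold change 1.51, adjusted p = 0.00564), and *Olfr47* had 53.5, 38.8 and 54.6 and then 161, 168 and 69.8 (log2 fold change 1.45, adjusted p = 0.0148). In both, farnesene replicate 3 was the lowest of its group and above all controls. *Olfr13* lost the threshold without farnesene replicate 2 (adjusted p = 0.0914) or control replicate 2 (0.0913). *Olfr47* lost it without farnesene replicate 1 (0.0898), farnesene replicate 2 (0.225) or control replicate 2 (0.194).

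*Olfr169* and *Olfr171* on chromosome 16 had the highest levels per kilobase of exon among the 19 in the control mice, ranking 22 and 30 of 1071 just before *Olfr132* at 33. *Olfr169* had 441, 392 and 590 in the control mice and 1430, 993 and 896 after farnesene (log2 fold change 1.22, SE 0.29, adjusted p = 0.0236). *Olfr171* had 247, 203 and 241 and then 576, 517 and 352 (log2 fold change 1.07, SE 0.26, adjusted p = 0.0319). Their groups did not overlap, but *Olfr169* lost the threshold without farnesene replicate 1 (adjusted p = 0.204), farnesene replicate 2 (0.106), control replicate 1 (0.051) or control replicate 2 (0.281), and *Olfr171* without farnesene replicate 1 (0.204), farnesene replicate 2 (0.225), control replicate 2 (0.281) or control replicate 3 (0.112).

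The last 5 were *Olfr1259*, *Olfr733*, *Olfr1342*, *Olfr193* and *Olfr90*. *Olfr1259* on chromosome 2 had 100, 83.0 and 84.2 in the control mice and 194, 233 and 164 after farnesene (log2 fold change 1.15, adjusted p = 0.0109). *Olfr733* on chromosome 14 had 127, 106 and 83.5 and then 282, 221 and 189 (log2 fold change 1.14, adjusted p = 0.0157). *Olfr1342* on chromosome 4 had 55.1, 95.2 and 78.0 and then 174, 147 and 192 (log2 fold change 1.14, adjusted p = 0.0162). These 3 ORs rose by about the same amount, with every farnesene mouse above every control. *Olfr193* on chromosome 16 had 16.7, 23.6 and 28.9 in the control mice and 114, 104 and 25.8 after farnesene (log2 fold change 1.76, SE 0.42, adjusted p = 0.0293). It had the fewest reads of the 19, from 10 to 37 in a control library, and 2 of its 3 farnesene mice lay above the controls. *Olfr90* on chromosome 17 had 150, 136 and 139 and then 292, 278 and 237, the smallest change of the 19 (log2 fold change 0.93, SE 0.23, adjusted p = 0.0375), and passed in 1 of the 6 analyses that left a library out. With libraries left out, the highest adjusted p was 0.106 for *Olfr1259* (without farnesene replicate 2), 0.148 for *Olfr733* (control replicate 3), 0.0757 for *Olfr1342* (control replicate 3), 0.4 for *Olfr193* (farnesene replicate 2) and 0.228 for *Olfr90* (control replicate 2).

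The normalised counts of the 19 ORs were not even across the 3 farnesene mice. Replicate 3 was the lowest of the 3 farnesene mice in 16 of the 19 ORs and replicate 2 in the other 3, whereas over all 1071 ORs tested replicate 3 was the lowest in 32.0%, replicate 2 in 34.8% and replicate 1 in 33.1%. Within the 19, the highest farnesene mouse was 1.05 to 4.41 times the lowest (median 1.60), and above 2 times in 6 ORs. *Olfr11*, *Olfr701* and *Olfr132* kept within 1.11-fold across the 3 mice, while *Olfr193* and *Olfr361* spanned 4.41-fold and 3.52-fold. Without replicate 3, 27 ORs were higher, the 19 and *Olfr1347*, *Olfr983*, *Olfr1352*, *Olfr722*, *Olfr198*, *Olfr704*, *Olfr1097* and *Olfr1348*, and without replicate 2 there were 8. Replicate 3 was the deepest of the 6 libraries, with 140471 OR reads, and the part of any technical difference in these values was not tested.

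Between the ORs just inside and just outside the threshold, the adjusted p went from 0.0375 for *Olfr90* to 0.132 for *Olfr704*. *Olfr704*, the cluster neighbour shown above, had 35.1, 41.9 and 50.7 in the control mice and 107, 103 and 56.6 after farnesene (log2 fold change 1.04, SE 0.30). *Olfr722* (1.29, SE 0.38, adjusted p = 0.139), a relative of *Olfr733*, had 223, 138 and 51.7 after farnesene against 76.9, 48.8 and 46.0. *Olfr983* (0.95, SE 0.28, adjusted p = 0.139) and *Olfr1352* (0.89, SE 0.27, adjusted p = 0.143) came next. In all 4, farnesene replicate 3 was again the lowest farnesene mouse.

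No OR passed in the lower direction. The lowest p among lower ORs belonged to *Olfr593*, a class I OR with 3, 9 and 9 reads in the control libraries and 1, 0 and 0 after farnesene (adjusted p = 0.143). edgeR's exact test called it lower, and its likelihood ratio test called it and *Olfr172*, while none of the analyses that left out a library called *Olfr593*. *Olfr1413* had 61.8, 60.9 and 64.0 in the control mice and 28.0, 15.3 and 44.0 after farnesene (log2 fold change -1.08, SE 0.34, adjusted p = 0.189). Its value lay opposite to that of *Olfr1411*, which rose and whose protein is 87.0% identical. *Olfr287* had 137, 280 and 206 in the control mice and 122, 117 and 122 after farnesene (log2 fold change -0.80, SE 0.26, adjusted p = 0.211). All 3 farnesene mice lay above all 3 control mice in 65 ORs, 6.07% of those tested, and below them in 52, 4.86%. In the 19 ORs the groups were apart in 18, a count that the test behind the choice favours.

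The 19 ORs were not the highest in the control mice. By normalised count per kilobase of exon in the control mice they ranked from 22 (*Olfr169*) to 751 (*Olfr193*) of 1071, with a median rank of 348, and 4 were among the first 100. After farnesene they ranked from 5 to 301, with a median rank of 77, and 13 were among the first 100. *Olfr536*, the OR with the most reads in the control mice, had 2091, 2191 and 2578 there and 2125, 2126 and 1961 after farnesene, with overlapping groups.

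All 19 ORs were class II. They lay on 10 chromosomes, with 4 on chromosome 2, 3 each on chromosomes 7 and 16, 2 each on chromosomes 6 and 17 and 1 each on chromosomes 1, 4, 11, 13 and 14. Of 127 class I ORs, 122 were tested and 0 were called in either direction by edgeR's quasi-likelihood test, where 1.77% of all ORs tested were called higher and 0% lower, so the count is near the background. Their median log2 fold change was -0.18, against -0.03 over all ORs. The class I share of OR reads was 8.95%, 8.40% and 9.49% in the control libraries and 6.92%, 7.84% and 9.38% in the farnesene libraries, a difference of -0.897 percentage points (two-sided exact permutation test, p = 0.3, where 3 mice against 3 allow no p below 0.1). The effective number of ORs, the exponential of the Shannon entropy of the read shares, was 419, 498 and 483 in the control libraries and 435, 489 and 497 after farnesene, and differed by less than the spread between mice (two-sided exact permutation test, p = 0.7).

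On chromosome 7, 15 ORs lay within 100 kb of *Olfr701*, *Olfr705* or *Olfr706* or were these ORs, and all were tested. *Olfr701* stood by itself, with *Olfr700* at 0.39 (SE 0.64) and *Olfr702* at 0.08 (SE 0.32) on either side on the log2 scale. *Olfr705* and *Olfr706* were adjacent, with *Olfr704* (1.04, SE 0.30) before them and *Olfr707* (-0.30, SE 0.41) after them. The other 11 ORs of the stretch, *Olfr704* left out, had log2 fold changes from -0.33 to 0.39. Of the 50-base stretches in its exons, *Olfr701* shared 0.401% with transcripts of another gene, *Olfr706* 0.585% and *Olfr705* 0.162%. The assignment of reads between these ORs was not tested.

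**Figure D3:**
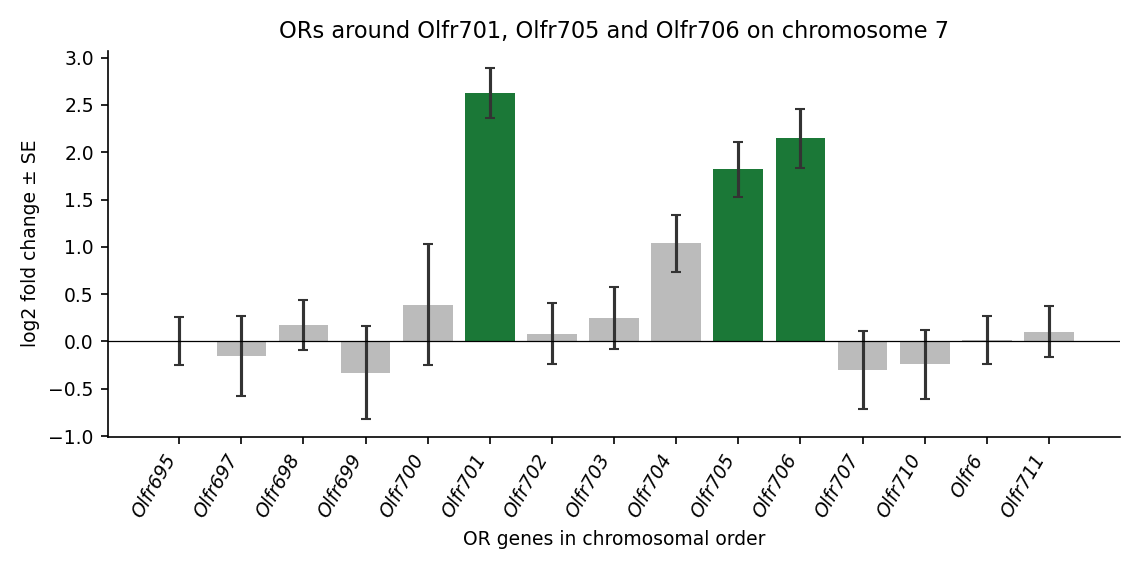
Log2 fold change (bars) with its standard error (whiskers) for the 15 ORs around *Olfr701*, *Olfr705* and *Olfr706*, in chromosomal order, green where the adjusted p is below 0.05. *Olfr701* rises between 2 ORs near 0, and *Olfr704*, *Olfr705* and *Olfr706* form a separate run.

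No neighbour of *Olfr11*, *Olfr1312* or *Olfr1280* passed. With 1.77% of all ORs tested called higher, the absence of calls among so few neighbours is near that share. The 7 OR neighbours of *Olfr11* had log2 fold changes from -0.41 to -0.14, the 8 of *Olfr1312* from -0.73 to 0.92 and the 9 tested of *Olfr1280* from -0.57 to 0.93. Over all 19 ORs, 106 ORs had a start within 100 kb of one that rose, itself among the 19 or not. Of these, 105 were tested and 7 were called, all among the 19, which is 6.67% against 1.77% of all ORs tested. The list was drawn around the called ORs, so its share is a description. With the called ORs left out, none could pass, and the 98 neighbours that remained had a median log2 fold change of 0.02. Their lowest adjusted p, 0.132 for *Olfr704*, was also the lowest of any OR not called.

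Not every close relative by protein sequence passed the threshold. The closest relative was at least 90% identical in protein for 9 of the 19 ORs. That relative also rose for 1 of the 9, *Olfr169* (*Olfr171*, 95.5%), a count too small to set against the 1.77% of all ORs called. At any identity the closest relative was called for 4 of the 19, *Olfr132*, *Olfr169*, *Olfr701* and *Olfr706*. These relatives were drawn around the called ORs, so that count is a description. *Olfr171* was itself 95.5% identical to both *Olfr169* and *Olfr170*. *Olfr170*, 94.9% identical to *Olfr169*, had a log2 fold change of 0.08 (SE 0.25). For *Olfr1393* the closest relatives *Olfr10* (96.1%) and *Olfr1392* (94.9%) had -0.36 (SE 0.77) and -0.09 (SE 0.27), and for *Olfr1259* the closest relative *Olfr1255* (96.4%) had -0.41 (SE 0.34). Differences between an OR and its relative were not tested. Where identity is this high the authors' read assignment also matters. *Olfr1393* shared 30.1% of its 50-base stretches with another gene, *Olfr171* 29.2%, *Olfr169* 19.4%, *Olfr47* 18.9% and *Olfr193* 11.1%. *Olfr90* shared 16.8%, but the gene sharing the most with it was *Zfp488*, which is not an OR. Reads within shared stretches cannot be given to a single gene by sequence. *Olfr132* and *Olfr1342* shared 0%.

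Less related ORs rose together as well. *Olfr13* and *Olfr47* were 68.4% identical, *Olfr132* and *Olfr90* 61.9%, and over the 171 pairs of the 19 the identity ranged from 33.3% to 95.5% with a median of 40.4%. The median identity of these ORs with all other ORs aligned was 39.5%. The 5 closest relatives of each OR made a list of 78, of which 77 were tested and 8 were called, all among the 19, which is 10.4% against 1.77% of all ORs tested, again for a list drawn around the called ORs. Without those, 69 relatives had a median log2 fold change of 0.01, against -0.03 over all ORs.

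**Figure D4:**
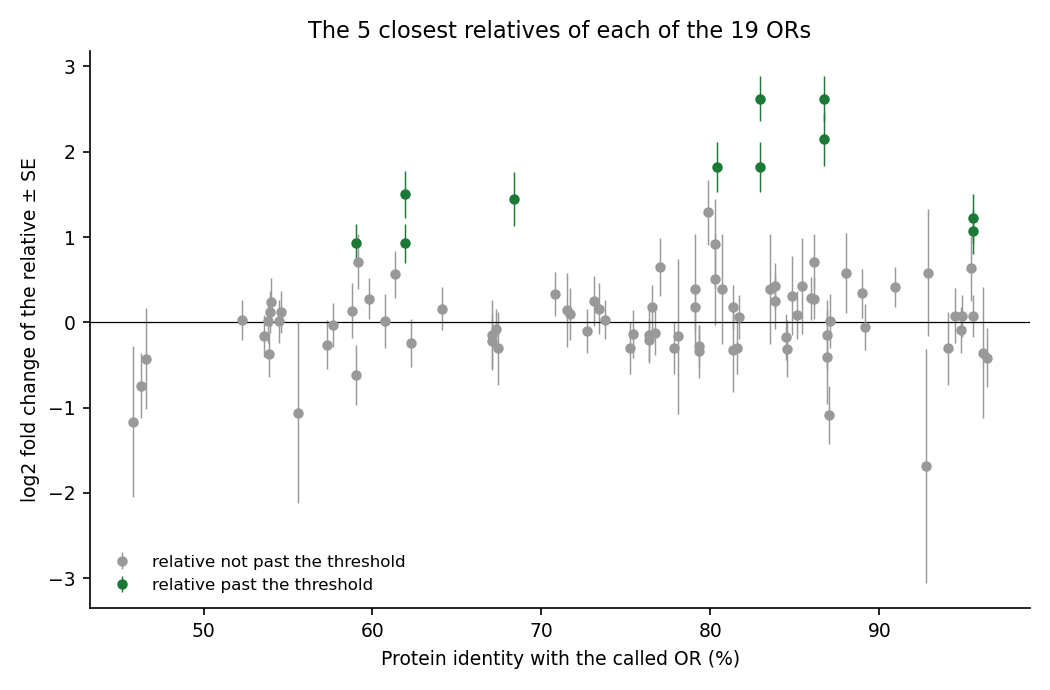
Log2 fold change, with its standard error, of the 5 closest relatives of each of the 19 ORs (y axis) against the protein identity of the pair in percent (x axis), green where the relative itself is past an adjusted p of 0.05. Most relatives are not past the threshold, also among the pairs above 90% identity. In those pairs the log2 fold change runs from -1.68 (SE 1.37, *Olfr1287*) to 1.22 (SE 0.29, *Olfr169*).

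Mice given the other odors of the same set served as reference groups that do not involve the control mice. In a direct contrast with the 3 mice exposed to 2,5-DMP, a pyrazine found in female mouse urine, 20 of 1071 ORs were higher after farnesene (1.87%) and 12 lower (1.12%). Of the 19 ORs 18 were among the higher, *Olfr193* being the exception (log2 difference 1.42, SE 0.42, adjusted p = 0.104), and *Olfr983* and *Olfr722* were the other 2. *Olfr701* led, with 552, 613 and 564 reads per 100000 OR reads after farnesene (without TMM scaling) and 100, 100 and 101 after 2,5-DMP (log2 difference 2.61, SE 0.23, adjusted p = 1.06e-06). *Olfr1312* (2.71, SE 0.24) and *Olfr11* (2.38, SE 0.23) were next. The farnesene mice enter both contrasts, so the second is not independent of the first, and the odors were given at different strengths.

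The 3 ORs of lowest p that were lower after farnesene than after 2,5-DMP had log2 fold changes of farnesene against control between -0.33 and 0.05. *Olfr693* had 140, 166 and 210 reads per 100000 after farnesene and 881, 767 and 693 after 2,5-DMP (log2 difference -2.10, SE 0.24, adjusted p = 2.66e-05). *Olfr1013* (-1.98, SE 0.27) and *Olfr699* (-2.29, SE 0.32) followed. *Olfr699* lies among the 15 ORs of the chromosome 7 stretch, as do *Olfr698* (-1.65, SE 0.24, adjusted p = 0.000242) and *Olfr697* (-1.32, SE 0.31, adjusted p = 0.0237), which were also lower after farnesene than after 2,5-DMP. Compared directly, 3 of the 15 ORs of that stretch were higher after farnesene (*Olfr701*, *Olfr705* and *Olfr706*) and 3 after 2,5-DMP. Over all ORs tested these shares were 1.87% and 1.12%. The stretch was drawn around the 3 ORs called after farnesene, so its counts are a description.

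Against the 3 mice exposed to 100 μM MTMT, a male urine thiol, 18 of 1068 ORs were higher after farnesene (1.69%) and 7 lower (0.655%). Of the 19 ORs 16 were among the higher, without *Olfr733* (adjusted p = 0.0623), *Olfr169* (0.278) and *Olfr193* (0.103), and *Olfr983* and *Olfr109* were the other 2. *Olfr1312* (log2 difference 2.61, SE 0.26), *Olfr701* (2.47, SE 0.25) and *Olfr11* (2.40, SE 0.25) led, each with an adjusted p of 6.73e-07. The lower ORs of lowest p were *Olfr165* (-1.72, SE 0.31, adjusted p = 0.000874), *Olfr1295* (-1.46, SE 0.26, adjusted p = 0.000874) and *Olfr224* (-1.56, SE 0.28, adjusted p = 0.00107). *Olfr1295* had 89.4, 103 and 81.2 reads per 100000 after farnesene and 202, 358 and 228 after MTMT.

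The same 19 ORs were read in the other odor comparisons of the series, each odor against its own controls. After 100% 2-*sec*-butyl-4,5-dihydrothiazole (SBT), which raised 10.7% of the ORs tested there, 4 of the 19 passed: *Olfr11*, *Olfr701*, *Olfr706* and *Olfr705*. *Olfr706* had 409, 467 and 520 reads per 100000 OR reads after SBT and 31.8, 71.7 and 95.2 in the SBT controls (log2 fold change 3.23, SE 0.38, adjusted p = 0.000131). *Olfr11* had 470, 694 and 473 against 90.9, 98.0 and 76.9 (3.00, SE 0.32, adjusted p = 7.67e-05). *Olfr701* had 240, 245 and 335 against 6.81, 64.7 and 36.6, the first of these control values far below the others (3.27, SE 0.53, adjusted p = 0.000931). *Olfr705* changed by 1.72 (SE 0.32, adjusted p = 0.00204). All 3 chromosome 7 ORs of the farnesene response were thus among those raised by undiluted SBT, while *Olfr1312* and *Olfr1280* were not called there.

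None of the 19 was called higher in the other 8 comparisons, where the share of all ORs called higher was 0.863% for 1% SBT, 0.466% for 0.01% SBT, 0.564% for 77% 3,4-dehydro-*exo*-brevicomin (DHB), 0.841% for 2,5-DMP, 0.281% for 100 μM MTMT and 0% each for 10 mM MTMT, cyclopentadecanone (CPD) and β-caryophyllene. With so few calls of any OR, this count says little about the 19. Their median log2 fold change in these 8 comparisons lay between -0.00245 and 0.21. The largest single value was 1.84 for *Olfr701* after 1% SBT (SE 0.61, adjusted p = 0.488). *Olfr1259* changed by 1.37 (SE 0.45) after 1% SBT and 1.35 (SE 0.42) after 10 mM MTMT, against 1.15 after farnesene. *Olfr705* changed by 1.36 (SE 0.41) after 1% SBT and *Olfr1280* by 1.20 (SE 0.33) after CPD. The lowest value was -0.79 for *Olfr1393* after 1% SBT (SE 0.92), and 9 to 13 of the 19 lay above 0 in each comparison. β-caryophyllene, the other sesquiterpene of the panel, was given at 1% and so at another strength than farnesene. After it *Olfr11* changed by 0.32 (SE 0.36), *Olfr701* by 0.33 (SE 0.45) and *Olfr1312* by -0.06 (SE 0.38) on the log2 scale, and the 19 ranged from -0.76 to 0.49.

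**Figure D5:**
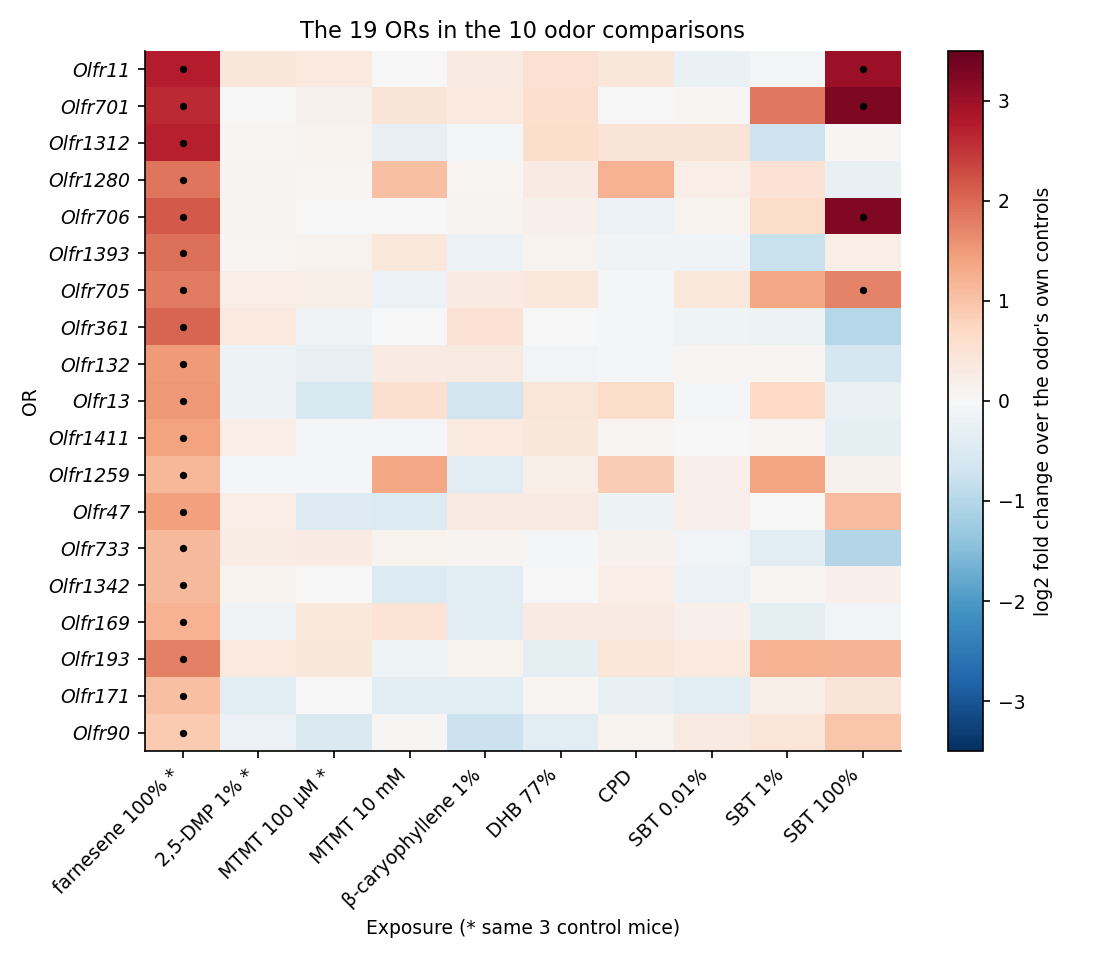
Log2 fold change (colour, odor over its own controls) of the 19 ORs (rows) in the 10 odor comparisons (columns), with dots where the adjusted p is below 0.05 and asterisks on the 3 odors that share control mice. Dots outside the farnesene column are found only for 100% SBT, in the rows of *Olfr11*, *Olfr701*, *Olfr706* and *Olfr705*.

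The levels of the 19 ORs in all 51 libraries, as reads per 100000 OR reads without TMM scaling, put the farnesene mice in a wider range. In 13 of the 19 ORs all 3 farnesene mice were above each of the 21 control mice of the series, and in 9 above each of the 27 mice given another odor. Over all ORs tested the first held for 1.4% and the second for 1.12%, and since the 19 were chosen for being above 3 of those controls their counts are a description. For *Olfr1312* the 21 control mice ranged from 21.9 to 95.4 (median 61.5) and no mouse given another odor exceeded 101, against at least 373 in the farnesene mice. For *Olfr701* the controls ranged from 6.81 to 122 and the highest mouse with another odor, after 100% SBT, reached 335, against at least 552. *Olfr193* overlapped most, with 10 control mice at or above its lowest farnesene mouse. The experiments were run with separate controls, so these ranges also hold differences between experiments.

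ORs with known roles in the study or the field were too few to read a count of calls against the 1.77% of all ORs called higher, so their values are given. Of the 5 sex-biased ORs of the study, *Olfr910*, *Olfr912*, *Olfr1295*, *Olfr1437* and *Olfr235*, 0 passed, with a median log2 fold change of -0.11. *Olfr1437*, a musk receptor, had the largest, 0.62 (SE 0.30, adjusted p = 0.768), with 73.2, 49.8 and 69.2 after farnesene against 31.8, 38.8 and 52.3, and *Olfr235*, the other musk receptor, had -0.37. Of 8 ORs with well-known ligands 7 were tested and 0 passed, with log2 fold changes from -0.40 for *Olfr78*, a receptor for short-chain acids, to 0.33 for *Olfr2*, an aldehyde receptor. *Olfr16*, *Olfr17*, *Olfr73*, a eugenol receptor, *Olfr160* and *Olfr1509*, an MTMT receptor, lay between these, and *Olfr151*, an acetophenone receptor, had 3 reads in the 6 libraries and was not tested.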

How the data were processed

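Per the labels and the study's methods, STAR (aligner) and RSEM (quantification) were run by the authors on GRCm38, and intact OR genes were kept. These expected counts were deposited as whole numbers without normalization, and aligner versions are not given in the sources used here. The authors' own fold changes and p-values stand in the same tables and were not used, nor were 6 per-sample columns of another odorant that match no label. The members, lists and tests were chosen with earlier results of these data known.

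The 3 farnesene and 3 control libraries entered edgeR 4.0.16 (R 4.3.3) with ORs of at least 10 reads in sum. TMM factors over OR genes, estimateDisp, glmQLFit and glmQLFTest were used, the Benjamini-Hochberg procedure covered all ORs tested, and the threshold was 0.05. The standard error (SE) is the size of the log2 fold change over the square root of F. The test was run on simulated data first. Replicate pairs differed by more than counting noise, so p-values rest on the spread between mice, 3 a group. For each OR that spread was estimated with information shared across all ORs tested (prior degrees of freedom of the dispersion 16.5). A p-value thus does not measure the spread of its own OR alone, and an OR with widely varying farnesene mice, such as *Olfr193*, can pass.

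Alternatives were library totals in place of TMM, DESeq2 1.42.0, ORs with at least 1 read, filterByExpr, the exact test and the likelihood ratio test of edgeR, a replicate block, fits of 12 or 51 libraries, thinning to 62538 OR reads and each library left out. Positions, exons and coding sequences came from GENCODE M21 on GRCm38. Proteins were translated from them and aligned globally (BLOSUM62, Biopython), keeping alignments over at least 80% of the OR. Stretches of 50 bases were searched in all GENCODE transcripts on both strands.

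Named were all called ORs, the 5 just outside, the 3 lower ORs of lowest p, members of 2 lists (sex-biased, well-known ligands), neighbours and relatives of the first 5, the OR with the most control reads, and in each direct contrast the 3 of lowest p in each direction. Other ORs were named after their values were seen.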

Additional observations from a re-analysis of the deposited data

How the results depend on the processing

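The 19 ORs that rose were all called by DESeq2, edgeR's exact and likelihood ratio tests, both other filters and a fit of 12 libraries. With library totals 18 passed, with libraries thinned to 62538 OR reads 18 (13 to 20 over 21 thinnings), and in a fit of all 51 libraries 12. With each library left out, 8 to 27 ORs were higher, and each of the 19 kept a positive sign. Lower ORs numbered 1 by the exact test, 2 by the likelihood ratio test and 0 to 1 with a library left out (*Olfr287*, *Olfr1195* or *Olfr1413*). The lone calls without farnesene replicate 3 or a control library come from groups of 2 against 3. In the direct contrast with 2,5-DMP, 12 to 24 ORs were higher and 7 to 12 lower with a library left out, the fewest without farnesene replicate 1, and in that with 100 μM MTMT 17 to 26 and 5 to 7.

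Deviations from the group means correlated by 0.0782, 0.0807 and 0.0596 between farnesene and control libraries of the same replicate number, each below 0.1. Odor and diluent mice were litter matched in the study, but nothing in its text or the labels ties a replicate number to a litter, so the numbers were not taken to pair the mice, although each library correlated best with its own number. With the replicate block 19 ORs were higher and 0 lower, 18 of them among the 19, with *Olfr983* in and *Olfr193* out (adjusted p = 0.0819). The block gave 23 higher and 13 lower against 2,5-DMP and 21 higher and 8 lower against 100 μM MTMT.

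The difference in class I share stayed negative, from -1.56 to -0.334 with a library left out, and that in the effective number of ORs ranged from -16.7 to 26.4, so its sign is not set. *Olfr912* ranged from -0.285 to 0.0752 with a library left out. *Olfr160* lay near 0, at -0.0011 with filterByExpr, -0.036 with library totals and from -0.0397 to 0.091 with a library left out. No other single OR of those named from the lists or contrasts changed its sign. The causes of these changes were not tested. With 3 mice a group and about 62538 OR reads in the shallowest library, changes in ORs with as few reads as *Olfr593* rest on counts of 0 to 9 in a library.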
